A study of Mus musculus with 6 samples.

Results

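The ZFP zinc finger genes described here are the mouse genes whose symbol is Zfp followed by a number, with a trailing letter allowed, and whose mean level over 6 RNA-seq libraries was at least 2 FPKM (fragments per length of gene and depth of library, read here as powers of 2 of the deposited log2 values). They were chosen by their name and by that mean level, and the family was proposed with results of these data known. Of the 11866 genes in the deposited table, 306 carried such a symbol and 212 reached that level. The level was taken over both groups together, so 193 members stood at 2 FPKM or more in both group means, 16 reached the level only through the KD mean and 3 only through the PLKO mean.

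All libraries came from HCC3-4, 1 liver tumour line of MYC transgenic mice, and all cells carried a stably introduced construct. The KD group (n = 3) received a short hairpin against Sf3b3, which encodes a subunit of the SF3b complex that recognises intron branch points, and the PLKO group (n = 3) received the control vector pLKO.1-TRC. The labels give no separate cultures, second hairpin, rescue or time point, so the p-values below are set against a spread between libraries that may be only technical, and lower Sf3b3 cannot be told apart from other differences between the cell populations. Between 14808106 and 17159900 recovered reads fell on the listed genes of a library. Sf3b3 stood at 26.9 ± 3.67 FPKM (SD, n = 3) in PLKO and 11.3 ± 2.33 FPKM in KD (log2 difference -1.26, limma adjusted p = 0.0372). None of 18 hepatocyte markers was among the listed genes, against 5 of 8 fetal liver and epithelial markers (Afp, Krt8, Krt18, Krt19 and Sox9), so the liver label rests on no marker of mature hepatocytes. These 5 summed to 131 to 148 FPKM in PLKO and 116 to 158 FPKM in KD, most of it Krt8 and Sox9. Afp stood at only 0.302 to 0.467 FPKM in PLKO and 0.814 to 1.98 FPKM in KD, too low on average to be tested. Of 8 fibroblast markers 5 were listed, with a summed level of 103 to 157 FPKM in PLKO and 52.9 to 75.7 FPKM in KD. Most of this sum was Col3a1 (mean 47.0 FPKM in PLKO, 19.8 in KD) and Pdgfrb (63.0 and 32.5 FPKM). Pdgfra had a higher mean in KD (9.99 and 11.9 FPKM), with overlapping groups. The other fibroblast markers listed, Col1a1 and Col1a2, were lower in KD at mean levels over all libraries of only 1.13 and 0.261 FPKM. Of 8 leukocyte markers only Cd68 and Cd14 were listed, with a summed level of 14.9 to 53.1 FPKM in PLKO and 53.3 to 113 FPKM in KD. The part of these marker levels in the results below was not tested. In bulk RNA a change in the share of a cell state and a change in RNA per cell cannot be told apart.

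Most Zfp genes encode proteins with arrays of C2H2 fingers, each a short loop held by a zinc ion that reads a few bases of DNA. Many also carry a KRAB domain, which recruits the corepressor Trim28 and with it the histone methyltransferase Setdb1, and these KRAB zinc finger proteins silence retroelements and guard imprinted loci. The symbol is a naming habit, however, and also covers CCCH fingers that bind RNA and single-finger proteins of the ribosome, the spliceosome and the kinetochore.

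More members were higher than lower in KD, while other genes of at least 2 FPKM were split nearly evenly. 141 of 212 members (66.5%) had a higher mean log2 level in KD and 71 a lower one, where 47.2% of the 9618 other genes of at least 2 FPKM and 47.7% of the 10770 genes tested were higher. The median log2 difference (KD minus PLKO) was 0.25 over the members, with quartiles at -0.16 and 0.54, against -0.04 with quartiles at -0.45 and 0.34 over the other genes. The other genes reached far higher levels, with a median of 11.7 against 5.05 FPKM. Among genes of 2 to 5 FPKM, 66.3% of members and 45.3% of others were higher, among those of 5 to 10 FPKM 72.6% and 44.6%, and among those of 10 FPKM or more 58.7% and 49.0%. The differences of the family lay higher but were not wider: their SD was 0.56, against 0.62 over the other genes. Because the family was proposed with results known, the shares are descriptions and carry no test.

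**Figure D1:**
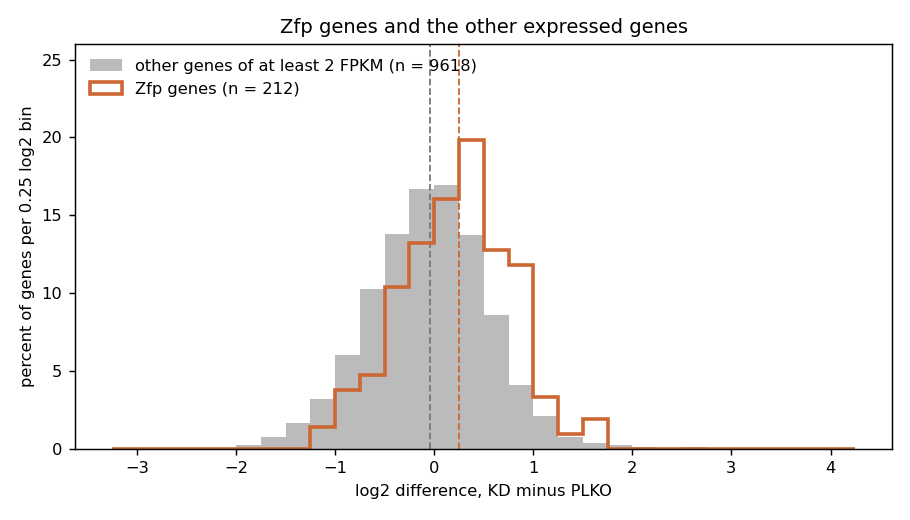
Histogram of log2 differences (KD minus PLKO, x axis) as percent of genes per 0.25 log2 bin (y axis) for the 212 Zfp genes (orange outline) and the 9618 other genes of at least 2 FPKM (grey), with dashed lines at the medians of 0.25 and -0.04. The Zfp outline lies to the right of the grey bars but reaches no further out on either side.

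A level taken over both groups can admit genes through the group where they are high. Among the 193 members at 2 FPKM or more in both groups, 125 were higher in KD. When the level was required of the PLKO libraries alone, 125 of 199 Zfp genes were higher, where 46.1% of all 9804 genes so chosen were. Of 57 Zfp genes that were tested but stayed below the level, 36 were higher in KD (median log2 difference 0.29). The threshold itself passed between Zfp296 (1.97 FPKM), Zfp341 (1.98 FPKM) and Zfp563 (1.99 FPKM), just outside, and Zfp667 (2.01 FPKM), Zfp560 (2.03 FPKM) and Zfp763 (2.03 FPKM), just inside.

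The shift was not shared by all libraries of a group. Relative to each gene's mean over the 6 libraries, the median member stood at 0.08, 0.03 and -0.33 on the log2 scale in PLKO 1, 2 and 3, and at 0.33, 0.13 and -0.10 in KD 1, 2 and 3. PLKO 3 was the low library and KD 1 the high one, and the groups overlapped, because KD 3 lay below PLKO 1 and PLKO 2. The median over all other genes stayed between -0.05 and 0.08 in every library. Split by exonic length, medians of the other genes moved further. The 2426 shortest stood at 0.148 in PLKO 2 and -0.146 in KD 3, and the 2399 longest at -0.004 and 0.1. The part of length in the library medians of the members was not tested. PLKO 3 held the lowest PLKO value of 135 members (63.7%, against 40.7% of the other genes), KD 3 the lowest KD value of 137 (64.6%, against 45.8%), and KD 1 the highest KD value of 134 (63.2%, against 34.4%).

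Compared library by library, 133, 125 and 154 of the 212 members were higher in KD 1, 2 and 3 than in the PLKO library of the same number, with median log2 differences of 0.29, 0.12 and 0.28. KD 3 exceeded PLKO 1 in 84 members and PLKO 2 in 92, with median differences of -0.14 and -0.11, so the sign turned in these comparisons. Without PLKO 3 the count of members higher in KD was 119 of 212 (56.1%, against 45.3% of the other genes) and the median difference 0.10. Without KD 1 the median was 0.15, without KD 3 it was 0.34, and without both libraries numbered 3 it was 0.22, with 130 members higher. With these libraries left out the family median stayed above 0, while its size moved by more than 1.5 times without PLKO 3 or without KD 1. The share of summed FPKM on mitochondrial transcripts was 5.99%, 4.89% and 7.22% in PLKO 1, 2 and 3 and 6.53%, 8.36% and 7.60% in KD 1, 2 and 3, and its part in the shift was not tested.

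**Figure D2:**
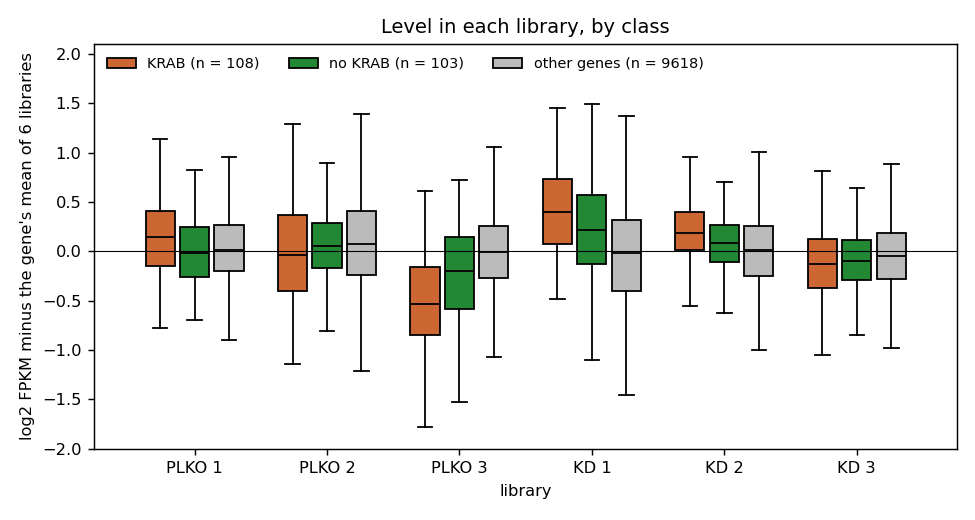
Log2 FPKM of each gene minus its mean over 6 libraries (y axis) in each library (x axis), for members with a KRAB domain (orange, n = 108), members without one (green, n = 103) and the other genes of at least 2 FPKM (grey, n = 9618); boxes span the quartiles, the line is the median and whiskers reach the last value within 1.5 interquartile ranges. KRAB members were lowest in PLKO 3 (median -0.54) and highest in KD 1 (median 0.40), while the grey medians stay near 0.

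Few members passed the test. In limma over 10770 genes, 6 members passed an adjusted p threshold of 0.05. KD was higher in 4 of them and lower in 2. Over all genes tested 2.92% were called, 1.12% higher and 1.79% lower, so the 6 of 212 (2.83%) are close to the background. Groups did not overlap for 39 members higher in KD (18.4%) and 17 lower (8.02%), where 13.4% and 18.8% of all genes tested did so. A difference of at least 2-fold was seen in 13 members upward (6.13%) and 3 downward (1.42%), where 4.67% and 6.43% of all genes tested had one. With the replicate number as a block, 28 members were called higher and 11 lower, beside 8.19% and 11.1% of all genes tested. The labels do not state that libraries of equal number are pairs, and this pairing was taken from the data. Adjusted p-values given with the block below rest on it. The test in limma called no member when PLKO 1, PLKO 2, KD 1 or KD 2 was left out (40, 40, 30 and 28 members then had an unadjusted p under 0.05), 10 when PLKO 3 was left out (7.44% of all genes) and 27 when KD 3 was left out (16.2% of all genes). With array weights limma called 103 members, where it called 56% of all genes.

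Zfp120, a KRAB member with 9 fingers on chromosome 2 (150114406 to 150136708, minus strand, GRCm38), rose most among the called genes. Its level was 2.42, 2.09 and 2.18 FPKM in PLKO 1, 2 and 3 and 7.30, 7.08 and 4.95 FPKM in KD 1, 2 and 3. Every KD library stood above every PLKO library, KD 3 nearest to them. The log2 difference was 1.51 (SE 0.26, limma adjusted p = 0.0331). The exact two-sided permutation test gave p = 0.1 for this gene, as for every member whose groups did not overlap, the smallest value that 3 against 3 libraries allow.

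Zfp292, a protein of 2698 residues with 15 finger matches and no KRAB domain, known as a growth hormone-dependent transcription factor, rose as well. It lies on chromosome 4 (34803113 to 34882960, minus strand). Its level was 9.15, 7.10 and 7.44 FPKM in PLKO and 21.4, 17.5 and 14.5 FPKM in KD, numbered 1 to 3 in each group. The groups were apart, and the log2 difference was 1.16 (SE 0.23, limma adjusted p = 0.0423). With 1174 to 3303 reads per library it is the most deeply covered of the 6 called members.

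The other 2 members that rose are KRAB genes of 1 cluster on chromosome 17. Zfp871 (32765496 to 32788287, minus strand, 15 fingers) had 4.42, 4.58 and 6.003 FPKM in PLKO 1, 2 and 3 and 12.1, 9.98 and 12.6 FPKM in KD 1, 2 and 3, a log2 difference of 1.21 (SE 0.22, limma adjusted p = 0.0382). Zfp955b (33289544 to 33307241, plus strand, 10 fingers) had 3.85, 3.29 and 3.93 FPKM in PLKO and 9.47, 9.09 and 6.75 FPKM in KD, a log2 difference of 1.18 (SE 0.23, limma adjusted p = 0.0425). Neither gene's groups overlapped. Zfp955b is uncertain as a separate gene: its neighbour Zfp955a has a coding sequence of the same 1635 bases in length with 98.2% identity, and how the authors' counting placed reads that match both is not given. Zfp955a stood at 8.47, 8.65 and 5.67 FPKM in PLKO and 15.7, 16.3 and 9.85 FPKM in KD, a log2 difference of 0.87 with a limma adjusted p of 0.0922, or 0.0168 with the replicate block.

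Zfp580 and Zfp771, both without a KRAB domain and both on chromosome 7, fell. Zfp580 (5051538 to 5053723, plus strand, 3 fingers) had 9.14, 10.3 and 9.43 FPKM in PLKO 1, 2 and 3 and 4.11, 4.16 and 4.17 FPKM in KD 1, 2 and 3, a log2 difference of -1.21 (SE 0.20, limma adjusted p = 0.0325). Its KD libraries lay closer together than those of any other called member, at 4.15 ± 0.035 FPKM (SD, n = 3). The gene overlaps Ccdc106 on the same strand and an antisense gene, and since the use of strand is not given, their reads cannot be told apart. Zfp771 (127244274 to 127254803, plus strand, 8 fingers) had 23.8, 23.3 and 20.5 FPKM in PLKO and 6.79, 9.55 and 13.0 FPKM in KD. The groups were apart in spite of the spread in KD, and the log2 difference was -1.25 (SE 0.26, limma adjusted p = 0.0453). With weights from recovered reads (voom in limma, which called 2.86% of all genes and 4 members), Zfp580 (adjusted p = 0.0579) and Zfp955b (0.0601) were not called.

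**Figure D3:**
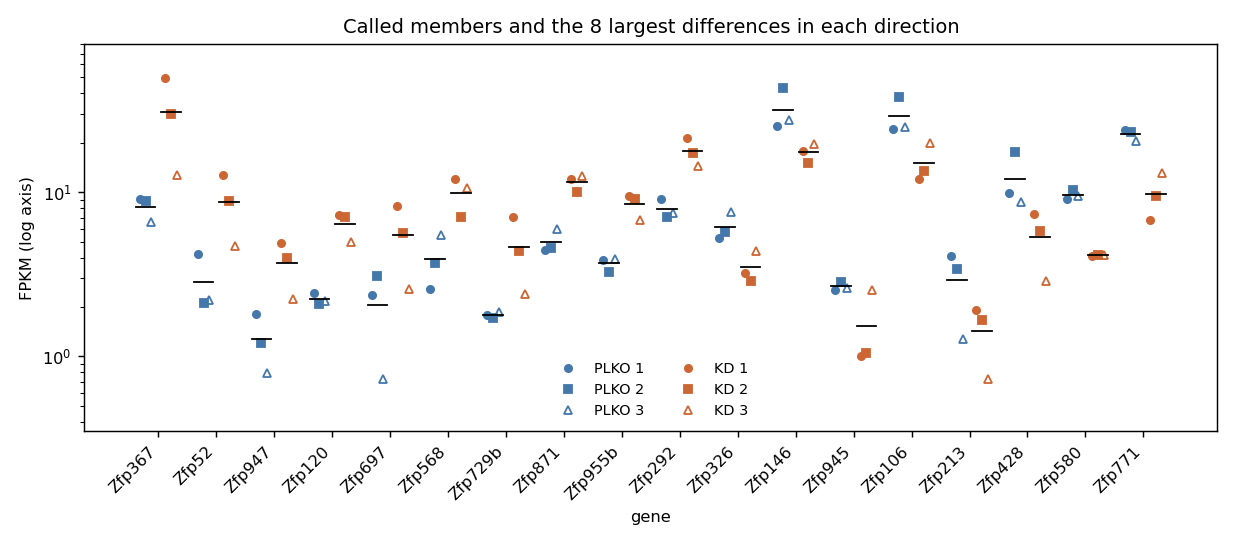
FPKM (log axis) in each library for the called members and the 8 members with the largest difference in each direction, ordered from the largest log2 difference to the smallest; PLKO libraries are blue, KD libraries orange, open triangles are the libraries numbered 3 and black bars are group means. For Zfp367, Zfp52 and Zfp947 KD 3 lies between the other KD libraries and PLKO, while for Zfp580 the KD libraries coincide near 4.15 FPKM.

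By the box-plot rule, which sets fences at 1.5 interquartile ranges beyond the quartiles (here -1.20 and 1.59), 5 members stood outside the family. Above were Zfp367 and Zfp52, below were Zfp771, Zfp580 and Zfp428. Zfp367, a transcription factor first described in erythroid cells, had 9.11, 8.84 and 6.56 FPKM in PLKO 1, 2 and 3 and 50.0, 29.9 and 12.7 FPKM in KD 1, 2 and 3. Its log2 difference of 1.72 was the largest of the family, and with an SE of 0.44 limma gave an adjusted p of 0.062 (0.00296 with the replicate block). The KRAB gene Zfp52 had 4.23, 2.12 and 2.19 FPKM in PLKO and 12.8, 8.88 and 4.70 FPKM in KD, a log2 difference of 1.59 (SE 0.41, limma adjusted p = 0.0629, 0.00342 with the block). Zfp428 had 9.84, 17.6 and 8.74 FPKM in PLKO and 7.36, 5.84 and 2.88 FPKM in KD, a log2 difference of -1.21 (SE 0.39, limma adjusted p = 0.0957, 0.0113 with the block). All 3 kept their groups apart. KD 3 was the lowest KD library in each, and in Zfp367 and Zfp52 it was the KD library nearest to PLKO.

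The rest of the largest differences were mixed in shape. On the upper side, Zfp947 (1.55), Zfp697 (1.49), Zfp568 (1.37) and Zfp729b (1.24) missed the threshold in limma, with adjusted p from 0.0579 to 0.145. Under the assumed pairing of the replicate block their adjusted p in limma was 0.00665 to 0.0225. That block called 19.3% of all genes tested. Zfp697 is the exception in its groups, which overlapped: PLKO 2 at 3.10 FPKM lay above KD 3 at 2.56 FPKM. Its annotated span also holds several Hsd3b genes on the opposite strand. On the lower side, Zfp213 (-0.97), Zfp945 (-0.95), Zfp106 (-0.95), Zfp146 (-0.83) and Zfp326 (-0.82) had limma adjusted p from 0.0745 to 0.267, and all but Zfp945 passed with the block. The groups of Zfp213 overlapped. Zfp945 turned on KD 3, which at 2.52 FPKM was next to the PLKO libraries (2.55 to 2.84 FPKM), while KD 1 and KD 2 stood at 1.00 and 1.04 FPKM. Of the members named here, Zfp729b, Zfp652, Zfp638 and Zfp445 overlap another annotated gene on the same strand, and several more overlap one on the opposite strand, so part of their reads may belong to it.

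Members varied more between libraries than other genes. The median within-group SD of log2 values was 0.37 in PLKO and 0.32 in KD, against 0.29 and 0.28 over the other genes. Their depth was also lower, with a median of 430 against 892 reads per library. At like levels the gap was smaller. Among genes of 2 to 5 FPKM the SDs were 0.43 (PLKO) and 0.35 (KD) against 0.36 and 0.33. At 5 to 10 FPKM they were 0.34 and 0.29 against 0.30 and 0.28. At 10 FPKM or more they were 0.28 and 0.28 against 0.27 and 0.25. The widest spread was in PLKO and came from PLKO 3 each time: Zfp189 had 5.72, 6.07 and 0.986 FPKM in PLKO 1, 2 and 3, Zfp184 had 3.48, 5.99 and 0.969 FPKM, and Zfp688 had 6.83, 5.14 and 1.29 FPKM. In KD these genes were lowest in KD 3, at 1.69, 1.19 and 2.40 FPKM. None of the 3 was called, and each changed sign when a single library was left out.

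Members with a KRAB domain made up 108 of the 211 with an annotated coding sequence. Of these, 78 (72.2%) were higher in KD, and their median log2 difference was 0.33; 3 were called higher and none lower in limma, 16 and 2 with the block. Of the 103 without the domain, 62 (60.2%) were higher, with a median of 0.17. Among them 1 was called higher and 2 lower, 12 and 9 with the block. The shares called, 2.78% of KRAB members and 2.91% of the others, were close to the 2.92% of all genes tested. With the block they were 16.7% and 20.4%, beside 19.3% of all genes tested (8.19% higher and 11.1% lower). KRAB members were the lower expressed class, with a median level of 3.62 against 7.76 FPKM. Without PLKO 3 their median difference fell further in log2 units than that of the others, but less relative to its size. Without PLKO 3, 64 of 108 KRAB members (59.3%, median 0.13) and 54 of 103 others (52.4%, median 0.03) were higher. Within the pairs of libraries numbered 1, 2 and 3, 71, 71 and 87 KRAB members and 61, 54 and 66 others were higher in KD. The medians were 0.24, 0.31 and 0.42 for KRAB members and 0.30, 0.02 and 0.12 for the others, so the KRAB median was the lower one in the first pair. The difference between the classes was not tested.

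Over all members finger number went with the share higher in KD, while among KRAB members alone that share was nearly level. The pattern C-x(2,4)-C-x(12)-H-x(3,5)-H matched 0 to 37 times per protein, with a median of 10. Of 37 members with 0 to 4 matches, 19 were higher (median 0.03), of 65 with 5 to 9, 40 (0.13), of 70 with 10 to 14, 51 (0.34), and of 39 with at least 15, 30 (0.34). The same order appeared without a KRAB domain, where 36 of 70 members with up to 9 matches (median 0.05) and 26 of 33 with 10 or more (median 0.34) were higher, while KRAB members with up to 9 matches already stood at 23 of 32 (median 0.22), and those with 10 or more at 55 of 76 (median 0.34). Without PLKO 3 the step shrank: the medians were -0.10, 0.13, 0.12 and 0.11 from the fewest to the most fingers, so only the class of 0 to 4 then stood apart. Exonic length moved with the difference among the other genes: 41.6% were higher among the 2426 shortest by exonic length (quartile bin 1 of 4) and 52.0% among the 2399 longest. Within the bins 18 of 32, 38 of 58, 43 of 65 and 42 of 57 members were higher, from the shortest to the longest, above the share of the other genes in each.

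**Figure D4:**
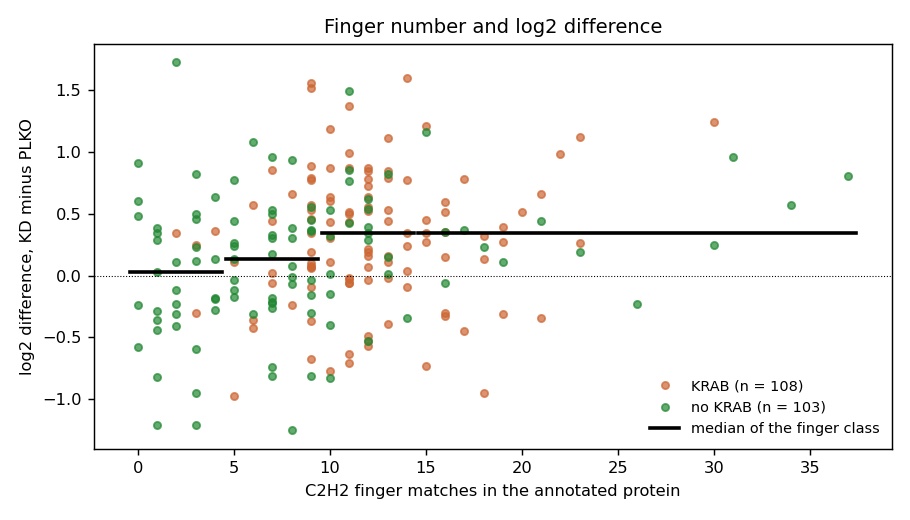
Log2 difference (KD minus PLKO, y axis) against the number of C2H2 finger matches in the annotated protein (x axis), for members with a KRAB domain (orange, n = 108) and without (green, n = 103); black lines are medians over 0 to 4, 5 to 9, 10 to 14 and at least 15 matches. The medians step from 0.03 to 0.13 and then 0.34, and single members scatter on both sides of 0 in every class.

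KRAB genes arose largely by tandem duplication, and many members sit side by side. With gaps of at most 1000000 bases between neighbours, 14 clusters of 4 or more members held 92 of them, 71 of these with a KRAB domain. In the clusters 71 of 92 members were higher in KD (77.2%, median 0.35), outside them 70 of 120 (58.3%, median 0.12). Without PLKO 3 these became 54 of 92 (median 0.10) and 65 of 120 (median 0.08), and the share in the clusters fell to 58.7%. Outside the clusters only 37 of the 120 members had a KRAB domain, so position and domain went together. Their separate parts in the difference were not tested.

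The cluster with the highest share on chromosome 17 ran from Zfp871 to Zfp414 (32765496 to 33631779, GRCm38). There 9 of 10 members were higher, with a median log2 difference of 0.78. Zfp871 and Zfp955b, 2 of the 10, were called in limma, where 2.92% of all genes tested were. Zfp955b and its near copy Zfp955a are both counted in this cluster, and they may share reads. The larger cluster on the same chromosome, from Zfp160 to Zfp213 (21008903 to 23564238), had 12 of 16 higher with a median of 0.48, and differences from -0.97 (Zfp213) to 1.59 (Zfp52). On chromosome 13, from Zfp429 to Zfp65 (67387905 to 67729173), 5 of 5 were higher, with a median of 0.88 and none called in limma. On chromosome 7 between Zfp84 and Zfp146 (29768552 to 30169750) only 5 of 10 were higher, from -0.83 for Zfp146 to 1.37 for Zfp568. All 4 members were also higher in the clusters from Zfp788 to Zfp719 on chromosome 7 and from Zfp930 to Zfp866 on chromosome 8, none of them called. The 14 clusters ranged from a median of -0.06 to 0.88, and 3 of them had every member higher.

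**Figure D5:**
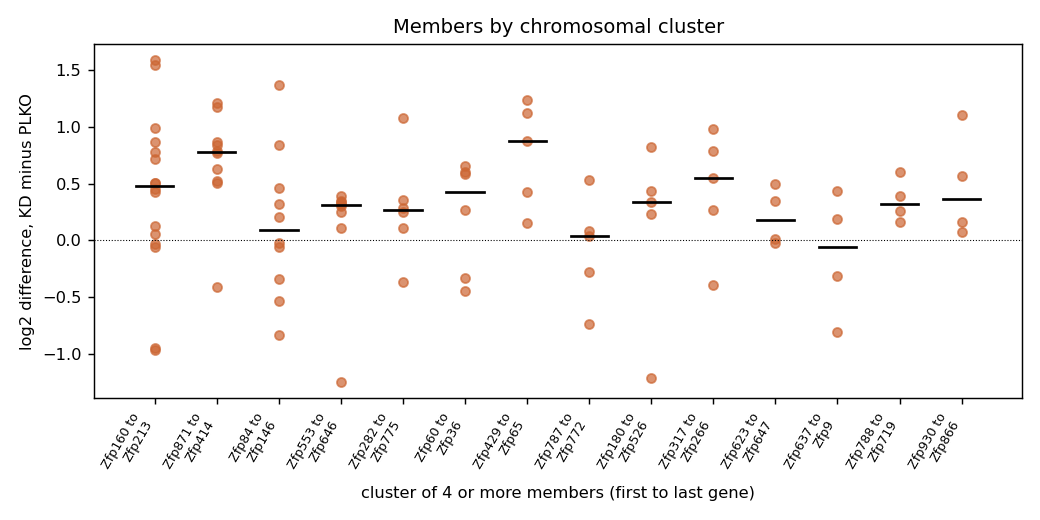
Log2 difference (KD minus PLKO, y axis) of each member (points) in the 14 clusters of 4 or more members (x axis, named by first and last gene, ordered by size), with the cluster median as a black line. The cluster from Zfp871 to Zfp414 lies above 0 except for 1 member at -0.41, while the one from Zfp84 to Zfp146 spreads from -0.83 to 1.37.

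The 250 bases before the start of the 2 called genes of the chromosome 17 cluster are shown because both were called higher in the same cluster. Other members lie between them, and whether they share regulation was not tested. Capitals mark the E-box (CACGTG), the site read by MYC and related factors, the CCAAT box (CCAAT, or ATTGG on the other strand) and the GC box (GGGCGG, or CCGCCC on the other strand). No 2 of the marked motifs overlap. Both are RefSeq promoters on GRCm38.p6, Zfp871 at chr17:32788288-32788537 on the minus strand and Zfp955b at chr17:33289294-33289543 on the plus strand.

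Zfp871: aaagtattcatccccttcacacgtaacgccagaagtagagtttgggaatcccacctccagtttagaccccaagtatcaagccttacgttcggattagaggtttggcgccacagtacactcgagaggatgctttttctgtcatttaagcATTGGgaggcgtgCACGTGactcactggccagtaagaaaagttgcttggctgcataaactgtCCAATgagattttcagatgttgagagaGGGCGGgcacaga
Zfp955b: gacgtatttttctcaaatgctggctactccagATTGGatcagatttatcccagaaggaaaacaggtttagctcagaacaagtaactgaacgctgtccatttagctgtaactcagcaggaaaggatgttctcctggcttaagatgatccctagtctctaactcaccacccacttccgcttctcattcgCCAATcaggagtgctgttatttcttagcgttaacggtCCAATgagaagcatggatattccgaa

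Zfp871 carries all 3 motifs and Zfp955b only CCAAT boxes. Zfp955a has the same 250 bases as Zfp955b, with 0 differences. Over the 176 members matched in the RefSeq table, 47.7% held a CCAAT box, against 37.2% of 9034 listed genes and 34.5% of all 27025 promoters in the table. An E-box was in 9.66% of members, 8.48% of listed genes and 6.05% of all promoters, and a GC box in 47.7%, 61.1% and 32.9%. KRAB members were the class poorer in CpG, with a median of 9 in these 250 bases against 17 in members without the domain. These are matches of letters, not binding sites.

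Of 10 members with known jobs in RNA metabolism and translation 4 were higher in KD. The median log2 difference was -0.20, and none was called in limma. The block called 2 lower (20%, beside 11.1% of all genes called lower and 19.3% called in either direction). Zfp106, an RNA-binding protein needed in motor neurons and muscle, had 24.4, 38.1 and 24.98 FPKM in PLKO 1, 2 and 3 and 12.1, 13.4 and 19.9 FPKM in KD 1, 2 and 3. Zfp326, a part of the DBIRD complex that links splicing to transcript elongation, had 5.27, 5.72 and 7.54 FPKM in PLKO and 3.23, 2.87 and 4.41 FPKM in KD. Both kept their groups apart, and with the block their adjusted p in limma was 0.0223 and 0.0305. In the other direction, Zfp36 (tristetraprolin, which binds AU-rich elements and hastens mRNA decay) had 4.91 to 7.72 FPKM in PLKO and 7.92 to 10.2 FPKM in KD, a log2 difference of 0.60 with a limma adjusted p of 0.151. The ribosome assembly factor Zfp622 (0.50), the spliceosome-associated Zfp830 (0.38) and Zfp638 (-0.31) were not called either.

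None of the 6 most abundant members was called. Zfp598, the ubiquitin ligase that marks collided ribosomes, had the highest mean level of the family at 34.8 FPKM, with 36.5, 48.7 and 29.6 FPKM in PLKO and 37.8, 33.5 and 22.8 FPKM in KD. Zfp706 (33.4 FPKM), Zfp740 (31.7), Zfp395 (29.4), Zfp207 (27.6), a kinetochore protein that carries Bub3, and Zfp703 (25.9), a transcriptional corepressor, followed in mean level. Neighbours in this order differed by less than the spread between their libraries. The log2 differences of these 6 genes ran from -0.44 (Zfp706) to 0.03 (Zfp395), and limma adjusted p from 0.229 to 0.95.

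Among 25 members with described roles at DNA or in chromatin outside the KRAB class, 19 were higher in KD (median log2 difference 0.34). Zfp292 was the only one called in limma (4%, beside 2.92% of all genes). The block called 4, all higher (16%, beside 8.19% of all genes called higher and 19.3% called in either direction). Zfp652, a partner of the CBFA2T3 corepressor, had 4.17, 4.41 and 6.15 FPKM in PLKO 1, 2 and 3 and 10.8, 8.69 and 8.95 FPKM in KD 1, 2 and 3. The groups were apart, with a log2 difference of 0.96 and a limma adjusted p of 0.0595 (0.0174 with the block). Zfp148, which binds GC-rich promoters, had 15.9 to 18.7 FPKM in PLKO and 18.9 to 38.3 FPKM in KD, groups that lay just apart, with a limma adjusted p of 0.172. Zfp462 (0.57) and the SUMO ligase Zfp451 (0.55) likewise had groups that did not overlap and missed the threshold. Without PLKO 3 the count in this list was 20 of 25, and without KD 3 it was 16 of 25.

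The KRAB members best known from mouse genetics went both ways. Zfp568, which silences a placental promoter of Igf2, had 2.59, 3.68 and 5.50 FPKM in PLKO 1, 2 and 3 and 12.1, 7.07 and 10.6 FPKM in KD 1, 2 and 3. Its groups were apart, and the limma adjusted p was 0.0579 (0.00801 with the block). Zfp445, which protects imprints, had 15.5, 14.04 and 16.1 FPKM in PLKO and 36.5, 24.7 and 19.9 FPKM in KD (log2 difference 0.78, limma adjusted p = 0.0926, 0.0364 with the block), while Zfp57, which acts at the same loci, had 3.72 to 6.05 FPKM in PLKO and 3.24 to 5.45 FPKM in KD (-0.30). Zfp932, a repressor of endogenous retroviruses, stood at 3.72 to 4.04 FPKM in PLKO and 2.12 to 2.54 FPKM in KD, apart but not called (-0.73, limma adjusted p = 0.101). Zfp809, which silences proviruses of murine leukaemia virus type, had 2.71 to 3.82 FPKM in PLKO and 3.10 to 3.30 FPKM in KD, a log2 difference of 0.02 with a 95% interval from -0.56 to 0.59. Of the 6 members in this list 4 were higher.

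The corepressors through which KRAB proteins act were split evenly. Of 30 tested genes of that machinery 15 were higher in KD, the median log2 difference was 0.03, and none was called in limma. Trim28 had 123, 143 and 134 FPKM in PLKO 1, 2 and 3 and 179, 162 and 130 FPKM in KD 1, 2 and 3, a log2 difference of 0.23 (limma adjusted p = 0.478), and KD 3 lay within the PLKO range. Setdb1 had 19.2, 14.6 and 12.9 FPKM in PLKO and 20.5, 20.3 and 19.2 FPKM in KD, a log2 difference of 0.38 (limma adjusted p = 0.276). The block called 1 of the 30 (3.33%, beside 19.3% of all genes), the NuRD subunit Mta3, which was lower in KD (-0.73).

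Zinc finger families with other names mostly had like shares higher in KD, with the Klf genes lower at 54.5%. Of 30 Zbtb genes of at least 2 FPKM 22 were higher (median 0.35), of 13 Zkscan and Zscan genes 10 (0.32), of 16 Zc3h genes, which mostly bind RNA, 11 (0.24), and of 11 Klf genes 6 (0.27). Whether the Zfp genes differ from these families was not tested.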

How the data were processed

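Poly(A) RNA of 6 libraries was sequenced. The authors deposited 1 table of log2 FPKM values (FPKM on a log2 scale, read as such from the values). Per the submitters' processing notes FastQC 0.11.7 and the build GRCm38 were used, while the sources used here do not give the aligner, counter, strand setting or gene filter. All 6 value columns matched a sample, so 0 were left unused. The values hold a prior with a mean of 2 reads, so differences of genes with few reads are understated. Reads were recovered from the value steps with GENCODE M21 exonic lengths (whole within 0.01 reads for 99.98% of genes, 676 of them with a scanned length; 2 genes were left out) and serve as depth and in 1 alternative. The lowest member had 26 reads in a library, and 175 of 212 had at least 100 in every library.

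Differences and tests came from limma 3.58.1 (R 4.3.3) on the deposited values, with the prior variance following the mean level, group alone as the term, on 10770 genes with a mean of at least 1 FPKM. Benjamini-Hochberg adjustment ran over all of them, and an adjusted p under 0.05 was called. On simulated data with 10770 genes and 200 changed, it recovered 0% of 2-fold and 77% of 4-fold changes. The members, role lists and marker lists were chosen with earlier results of these data known. Named members were those called, the 8 largest and 8 smallest differences, those outside the fences, the 6 most abundant, the 3 most variable, those next to the level threshold, and up to 6 per role list by adjusted p; Zfp955a and the members marking the ends of clusters were named after their values were seen.

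Equal replicate numbers were taken to pair libraries because deviations from the group means correlated at 0.181, 0.293 and 0.497 for numbers 1, 2 and 3, all above the limit of 0.1. The pairing comes from the data, not from a label, and libraries 1 and 2 could as well be crossed: KD 1 reached 0.299 against PLKO 2, and KD 2 reached 0.275 against PLKO 1. Fingers were counted and the KRAB domain searched in translations of GENCODE M21 coding sequences. The RefSeq proteins planned were not used here. The KRAB search used pyhmmer 0.12.3 with an E-value under 0.001. Its profile came from 162 windows of 40 residues in annotated zinc finger genes, whether or not these were members. Zfp469 has no coding sequence in that annotation. The KRAB profile was built from windows that matched a fixed core pattern, so it may miss divergent domains. Promoters were the RefSeq entries of 250 bases before the start.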

Additional observations from a re-analysis of the deposited data

How the results depend on the processing

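The count of members higher in KD stayed between 119 and 153 of 212 and their median log2 difference between 0.10 and 0.34 in every alternative run (log2(FPKM + 1), other filters, quantile normalization, median centring, array weights, voom on recovered reads, each library left out), 0.14 with array weights. With members chosen at 1 or 5 FPKM, 65.8% and 66.7% were higher, with the level taken from PLKO alone 62.8%, and from KD alone 68.7%, a choice that admits members through the group where they are high. The number of calls was not stable. With the replicate block, which rests on the assumed pairing, limma called 39 members and 2080 genes in place of 6 and 314. With array weights it called 103 and 6030, and KD 2 alone then carried a weight of 44.7, so these counts lean on 1 library. Leaving out 1 library gave 0 to 27 members and 0 to 1744 genes, with 0 genes called without PLKO 1, PLKO 2, KD 1 or KD 2 (2217, 2315, 1818 and 1793 at an unadjusted p under 0.05), 801 without PLKO 3 and 1744 without KD 3. Without both libraries numbered 3, an alternative added after seeing the data, 55 members and 3009 genes were called. Of 645 values of the 43 named members under alternatives, 536 kept direction and call, 68 passed the threshold newly, 26 lost it and 15 changed sign, all of uncalled members. With 1 library left out, these ran from -0.20 to 0.19 (Zfp395), -0.03 to 0.08 (Zfp667), -0.63 to 0.11 (Zfp703), -1.16 to 0.15 (Zfp189), -1.05 to 0.26 (Zfp184), -0.39 to 0.81 (Zfp688) and -0.10 to 0.15 (Zfp809), and with array weights Zfp395 stood at -0.14 and Zfp667 at -0.03. The cause was not tested. Quantile normalization and median centring put 50.5% and 51.1% of all genes tested above 0, where 47.7% were without them, and 149 and 148 members. In simulated data with this spread between 3 libraries and 200 of 10770 genes changed, 0% of 2-fold and 77% of 4-fold changes were recovered. In the data themselves 2977 genes had an unadjusted p under 0.05 in limma. The adjusted threshold of the simulation was therefore stricter, and its recovery does not carry over to these data.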
